A study of Mus musculus with 4 samples.

Results

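The levels of 10 genes of fatty acid uptake and lipid droplets were examined cell by cell in brown adipose tissue (BAT) of mice, in the stromal vascular fraction (SVF). They were Cd36, Lpl, Fabp4, Fabp5, Plin2, Lipa, Pnpla2, Mgll, Acsl1 and Dgat1, listed by symbol out of the 32285 genes of the count tables. The SVF is the pellet left after digestion, without the buoyant adipocytes, so it holds immune, stromal and vascular cells. There were 4 libraries, all of strain C57BL6/J by their labels. The lean library came from wild-type (WT) mice of 10 weeks of age. The 3 obese libraries came from db/db mice of 8 weeks (db/db 8w), from db/db mice of 16 weeks (db/db 16w) and from mice fed a high-fat diet (HFD), and values of the obese libraries are given in this order, after that of WT where 4 values follow each other. The db/db mice are homozygous for the Leprdb mutation of the leptin receptor in every tissue and are obese and diabetic, whereas HFD mice carry no engineered allele and become obese on the diet. HFD mice were labelled as aged 10 weeks, but by the study's methods the diet began at 10 weeks of age and lasted 10 weeks, so the label does not settle their age. Each library was made from the pooled SVF of several mice after cell sorting, with the sorting gate not given in the sources used here. The question was how genes of lipid handling differ between lean and obese mice in the cells of BAT.

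Fat that circulates in lipoproteins is cut by lipoprotein lipase at the vessel wall, and the freed fatty acids are taken up with the help of CD36. Inside the cell they are carried by fatty acid binding proteins, activated by acyl-CoA synthetases and stored as triglyceride in droplets coated by perilipins. Stored fat is broken down again by cytosolic lipases or, in the lysosome, by acid lipase. Macrophages that have taken up much lipid, called lipid-associated macrophages (LAM), are known for this programme in the adipose tissue of obese animals.

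On the reference (GRCm38, GENCODE M21) the 10 are protein-coding genes on 8 chromosomes. Fabp4 (chromosome 3, 10204088 to 10208576, minus strand) and Fabp5 (chromosome 3, 10012548 to 10016607, plus strand) are near neighbours. Cd36 is on chromosome 5 (17781690 to 17888801, minus), Plin2 on chromosome 4 (86648386 to 86670060, minus), Lipa on chromosome 19 (34492318 to 34527474, minus) and Dgat1 on chromosome 15 (76502015 to 76511953, minus). Lpl is on chromosome 8 (68880491 to 68907448, plus), as is Acsl1 (46471037 to 46536051, plus), Pnpla2 is on chromosome 7 (141455198 to 141460743, plus) and Mgll on chromosome 6 (88724412 to 88828360, plus). Fabp5 has a copy by name, Fabp5l2, and whether reads alike between them affect the Fabp5 counts was not tested.

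After the quality limits the WT library had 5944 cells and the obese libraries 11648, 5833 and 5462, with medians of 2733 to 6218.5 unique molecular identifiers (UMIs) per cell. The libraries differed in more than their group. The limit on mitochondrial RNA alone removed 1615 WT barcodes and 6166, 55 and 11948 of the obese libraries, and the cells kept had median mitochondrial shares of 4.29% against 5.94%, 0.799% and 10.5%. The female transcript Xist stood at 207 CPM (the gene's share of all UMIs, scaled to a common total) in db/db 16w and at most at 0.688 CPM in the other libraries, while 4 Y-linked genes summed to 17.7 CPM there and to 164 to 188 CPM in the others. By the study's methods all mice were males, which the RNA of db/db 16w does not match. Sex and age cannot be told apart in db/db 16w. Pairs of libraries shared 16 to 97 cell barcodes, at most 0.629% of a library. With 1 library per group nothing was tested, and each 95% interval covers counting error only.

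Cells were assigned to lineages by gates on raw UMIs of marker genes, none of which is among the 10 genes. A cell needed at least 3 UMIs over the markers of a lineage, from at least 2 of them, and at least 80% of its lineage marker UMIs had to be of that lineage. The monocyte and macrophage (Mono/MAC) gate held 1059 WT cells and 2597, 2116 and 1464 cells of the obese libraries. The stromal gate held 4148 WT cells and 5283, 1031 and 1436 others, and the endothelial gate 19 WT cells and 74, 1156 and 926 others. In the Mono/MAC gate the 6 Mono/MAC markers summed to 1920 to 3177 CPM, against 4.12 to 119 CPM for the 5 stromal markers. This order follows from the gate's own rule and is no separate support for the identity of the cells. A gene was called higher or lower in a library where its level differed at least 2-fold and reached at least 20 CPM in either library. All ratios to WT were taken against the same WT library.

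The genes that bring fatty acids into the cell were higher in Mono/MAC-gated cells of each obese library. Cd36, the fatty acid and lipoprotein scavenger receptor, was at 795 CPM in WT (95% interval 775 to 815) against 1751, 2254 and 3092 CPM in the obese libraries. Every obese library thus stood above WT, with HFD highest. Its ratios to WT were 2.20-fold (2.14 to 2.26), 2.84-fold (2.76 to 2.92) and 3.89-fold (3.79 to 4.00). Lpl, lipoprotein lipase, was at 380 CPM in WT against 2258, 2817 and 3736 CPM in the obese libraries, which was 5.95-fold, 7.42-fold and 9.84-fold its WT level. In WT the median Mono/MAC-gated cell held 0 Lpl UMIs, the cell at the 90th percentile 5 and the highest cell 251.

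The fatty acid binding proteins were at least 9.89-fold above WT in these cells in each obese library. Fabp4 was at 125 CPM in WT against 1949, 1231 and 1967 CPM in the obese libraries. Its ratio to WT was 15.6-fold (14.7 to 16.7), 9.89-fold (9.26 to 10.6) and 15.8-fold (14.8 to 16.9). Fabp5, a related carrier, was at 86.4 CPM in WT against 925, 2177 and 1433 CPM in the obese libraries, or 10.7-fold, 25.2-fold and 16.6-fold the WT level. Of the 2 carriers Fabp5 was highest in db/db 16w, where Fabp4 was the lowest among the obese libraries.

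Plin2, which coats small lipid droplets outside adipocytes, was at 881 CPM in WT Mono/MAC-gated cells. With cells thinned to 1000 UMIs 50.5% of them held a Plin2 UMI, against 3.45% of WT T cells, and before thinning 89.8% against 37.9%, with median depths of 6206 and 5162 UMIs. Plin2 was at 1416, 1907 and 1823 CPM in the obese libraries, 1.61-fold, 2.16-fold and 2.07-fold the WT level. Lipa, the acid lipase that frees fatty acids from lipid taken into the lysosome, was at 194 CPM in WT against 507, 560.3 and 1193 CPM in the obese libraries. This was 2.61-fold (2.47 to 2.76), 2.89-fold (2.73 to 3.05) and 6.15-fold (5.83 to 6.49) the WT level.

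Among the genes of cytosolic lipolysis, activation and synthesis, Pnpla2, Acsl1 and Dgat1 differed less, whereas Mgll in HFD did not. Pnpla2, the adipose triglyceride lipase that starts lipolysis, was at 66.1 CPM in WT against 85.5, 70.8 and 91.7 CPM. Acsl1, a long-chain acyl-CoA synthetase, was at 23.2 CPM in WT against 21.3, 23.7 and 31.4 CPM, and Dgat1, which makes triglyceride, at 11.6 CPM against 10.5, 6.93 and 9.45 CPM. Neither Pnpla2 nor Acsl1 reached a 2-fold difference in any obese library, and Dgat1 stayed under 20 CPM in all 4. Mgll, the monoglyceride lipase that completes lipolysis, was at 3.93 CPM in WT against 16.8, 6.93 and 63.8 CPM in the obese libraries, 16.2-fold its WT level in HFD (11.3 to 24.3). The 6 endothelial markers stood at 65.8 CPM in the same HFD cells and 1.83 CPM in those of WT, and Mgll at 1567 CPM in endothelial-gated HFD cells. The part of endothelial RNA in this value was not tested.

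**Figure D1:**
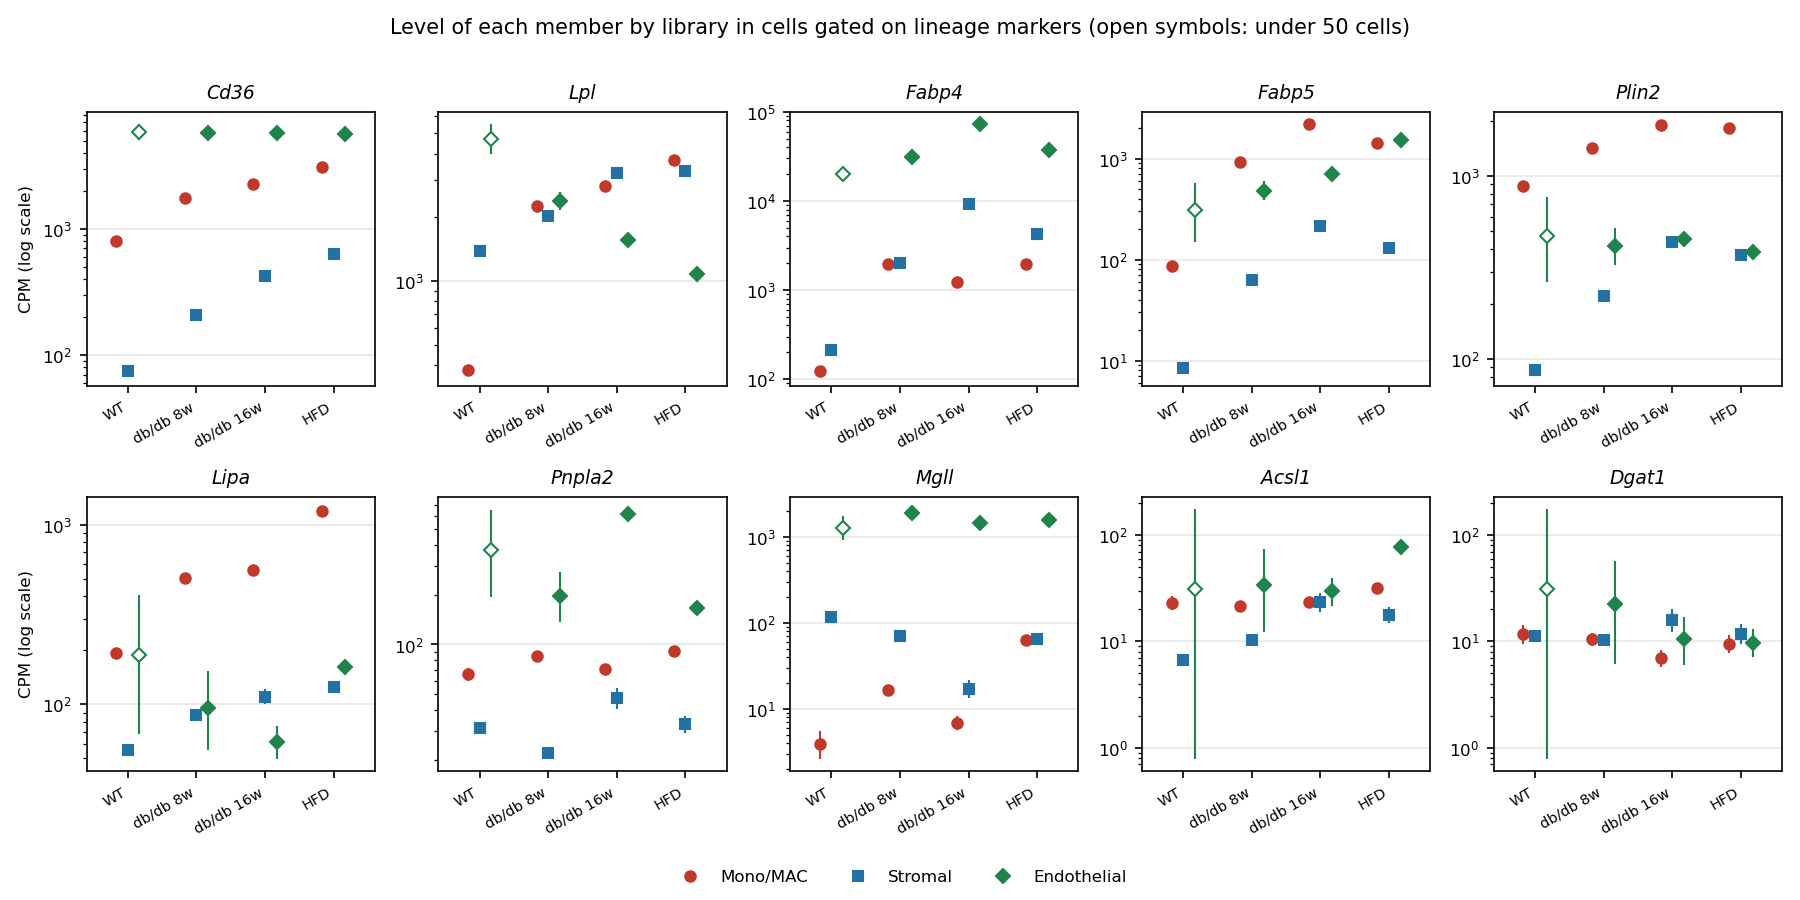
Level of each of the 10 genes in CPM on a log axis, by library, in Mono/MAC-gated (circles), stromal-gated (squares) and endothelial-gated cells (diamonds), with 1 library per group. Bars are exact 95% Poisson intervals, and the open symbols are the 19 endothelial-gated cells of WT. Cd36, Lpl, Fabp4, Fabp5 and Lipa in Mono/MAC-gated cells lay above WT in all 3 obese libraries, whereas Cd36 in endothelial-gated cells stayed between 5589 and 5869 CPM.

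In db/db 8w 5 of the 10 genes were called higher in the Mono/MAC gate, of 8 that passed 20 CPM, beside 5.42% of the 5718 genes tested (310 genes). In db/db 16w 6 were called higher, of 8 that passed, beside 22.4% of 6036 genes (1352), and in HFD 7 of 9, beside 13.9% of 6049 genes (840). None was called lower, while 5.4%, 25.8% and 11% of all genes tested were, that is 309, 1557 and 667 genes. Cd36, Lpl, Fabp4, Fabp5 and Lipa were called higher in all 3 libraries. With cells thinned to 1000 UMIs, Cd36 and Lipa missed the 2-fold limit in db/db 8w, at log2 ratios of 0.80 and 0.87. The median log2 ratio over all genes tested was 0.05, -0.09 and 0.19 in the 3 libraries, so the general shift was small beside these values.

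Macrophages were then divided by a pair of marker sets that again hold none of the 10 genes. LAM-gated cells had at least 2 UMIs of Trem2, Gpnmb, Atp6v0d2, Mmp12 and Spp1 and more of these than of the perivascular macrophage (PVM) genes Lyve1, Folr2, Cd163, Cd209f and Timd4, and the PVM gate was the reverse. The WT library had 30 LAM-gated and 910 PVM-gated cells. The obese libraries had 887, 1609 and 1156 LAM-gated and 1382, 282 and 97 PVM-gated cells. LAM-gated cells were 2.83% of Mono/MAC-gated cells in WT and 34.2%, 76.0% and 79.0% in the obese libraries. They also held more UMIs than PVM-gated cells, with medians of 9410 against 4692 in db/db 8w, and a deeper cell reaches 2 marker UMIs more easily.

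Within each obese library, where age, diet and run were shared, LAM-gated cells held more of the uptake and droplet genes. Lpl was at 3812 CPM in LAM-gated and 529 CPM in PVM-gated cells of db/db 8w, 3077 and 307 CPM in db/db 16w, and 4033 and 1770.1 CPM in HFD. The ratio was 7.20-fold (6.97 to 7.44), 10.0-fold (9.0 to 11.2) and 2.28-fold (2.13 to 2.45). Fabp5 was at 1609 and 233 CPM, 2405 and 184 CPM, and 1608 and 223 CPM, which gave 6.90-fold, 13.1-fold and 7.21-fold. The PVM level of Fabp5 thus varied little among the obese libraries, while that of Lpl was far higher in HFD.

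Plin2 was 2.73-fold, 5.25-fold and 2.49-fold higher in LAM-gated cells of the obese libraries, and Lipa 3.59-fold, 3.06-fold and 2.58-fold. Cd36 stood at 2448 CPM against 1125 CPM in db/db 8w, a ratio of 2.18-fold, and fell short of 2-fold in db/db 16w (1.82-fold, 1.72 to 1.92) and HFD (1.87-fold, 1.74 to 2.0). Fabp4 was 4.97-fold and 4.09-fold higher in LAM-gated cells of db/db 8w and db/db 16w, but 1.27-fold in HFD (1.18 to 1.37). Pnpla2 was at 103 against 70.8 CPM, 71.4 against 70.0 CPM and 96.1 against 73.7 CPM, and Acsl1 did not reach 2-fold in any library. Called higher were 7 of the 10 genes in db/db 8w, of 9 that passed 20 CPM, beside 5.95% of 5712 genes (340). In db/db 16w they were 5, of 8 that passed, beside 6.01% of 5773 genes (347), and in HFD 4, of 9, beside 7.1% of 6098 genes (433). With the mean UMIs of T cells subtracted as free RNA, 8 were called higher in HFD, Fabp4 among them at a log2 ratio of 1.49, beside 36.4% of all genes under the same subtraction.

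The LAM-gated cells of WT were 30 of 1059 Mono/MAC-gated cells with 4.60% of all their UMIs. They held 46.7% of the Fabp5 UMIs (308 of 660, 42.8 to 50.6), 32.5% of the Lpl UMIs (943 of 2902) and 27.7% of the Fabp4 UMIs (264 of 952). Their shares were 12.9% for Lipa, 10.4% for Cd36, 9.01% for Plin2, 6.67% for Mgll, 5.62% for Dgat1, 4.55% for Pnpla2 and 3.95% for Acsl1. Their levels were 2685 CPM for Lpl, 1791 CPM for Cd36, 1729 CPM for Plin2, 877 CPM for Fabp5, 752 CPM for Fabp4 and 544 CPM for Lipa. PVM-gated cells of WT held 225, 796, 877, 46.5, 96.7 and 186 CPM of the same genes. No ratio was formed from so few cells. The intervals of the Pnpla2 (2.91 to 6.76%), Mgll (0.818 to 22.1%), Acsl1 (1.60 to 7.98%) and Dgat1 (1.85 to 12.6%) shares included the share of all UMIs.

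**Figure D2:**
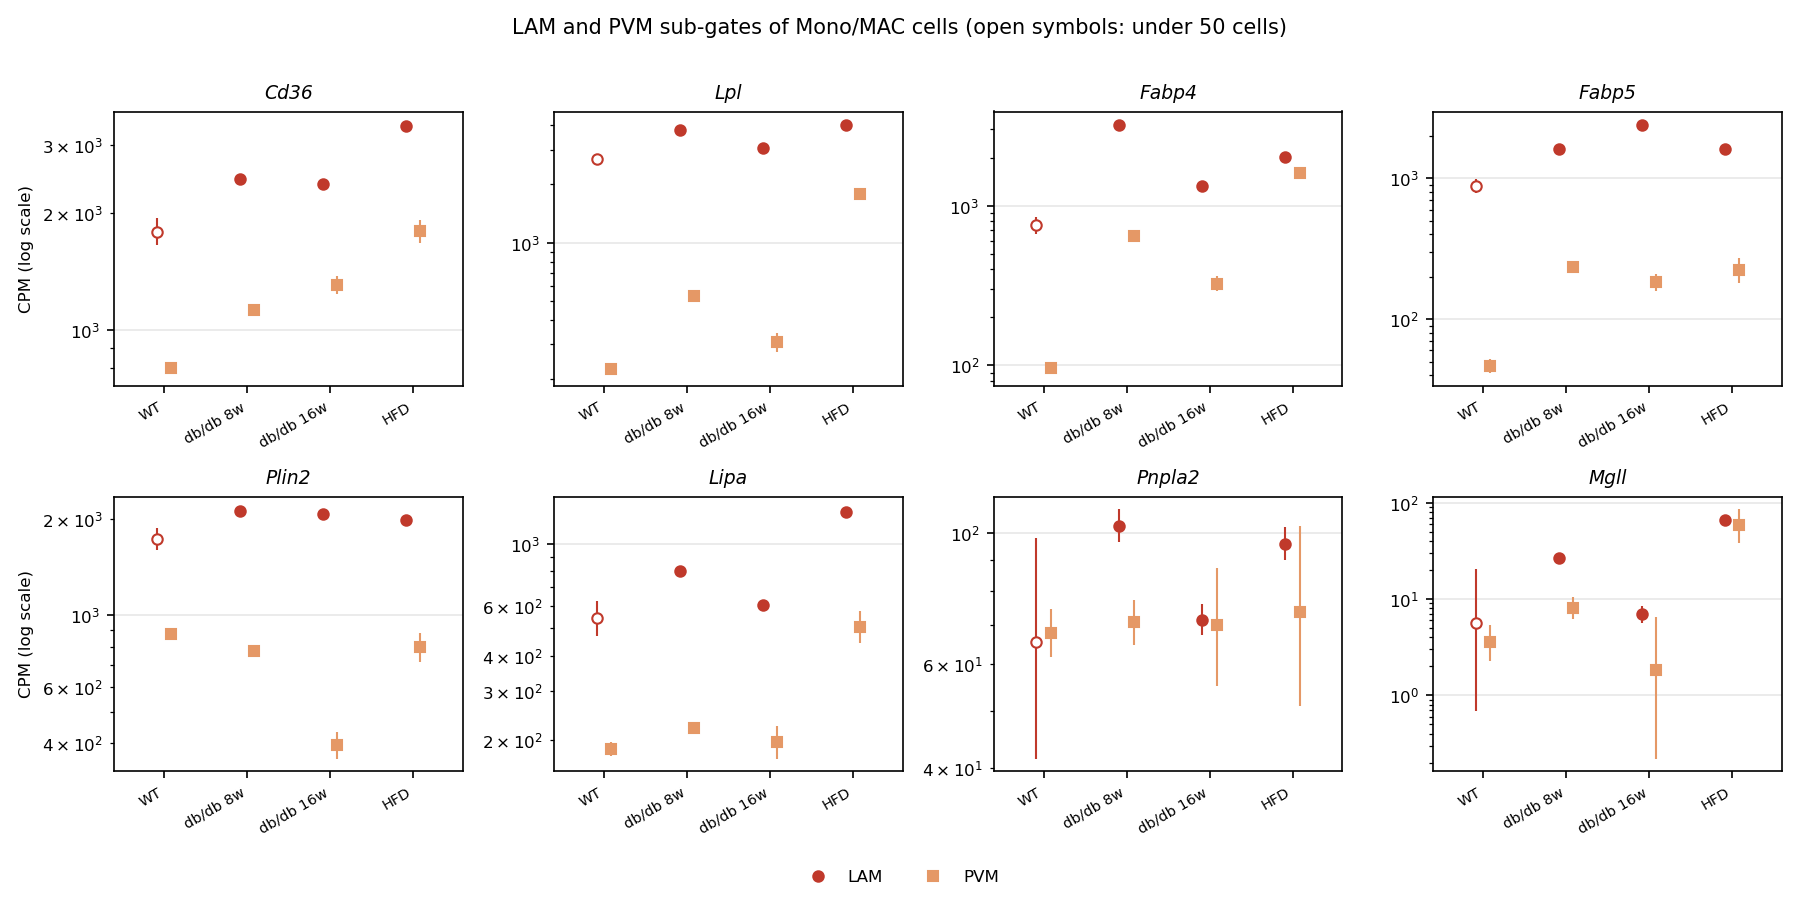
Levels of 8 of the genes in CPM on a log axis in LAM-gated (circles) and PVM-gated cells (squares) of each library, with exact 95% Poisson intervals. The open symbols are the 30 LAM-gated cells of WT. Lpl, Fabp5, Plin2 and Lipa were at least 2-fold higher in LAM-gated than in PVM-gated cells of each obese library, whereas Pnpla2 lay between 65.5 and 103 CPM throughout.

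The share of LAM-gated cells differed so much between libraries that PVM-gated cells were also compared with those of WT, an alternative chosen after the data were seen. In the PVM gate Fabp4 was at 96.7 CPM in WT against 647, 324 and 1599 CPM in the obese libraries, and Fabp5 at 46.5, 233, 184 and 223 CPM. These 2 genes were called higher in all 3 libraries within the PVM gate too. Cd36 was at 796, 1125, 1308 and 1796 CPM, with ratios to WT of 1.41-fold, 1.64-fold and 2.26-fold. Lpl was at 2.35-fold, 1.37-fold and 7.87-fold its WT level. The 97 PVM-gated cells of HFD held 7.61 Fabp4, 8.55 Cd36 and 8.42 Lpl UMIs per cell, against 5.24, 2.82 and 2.0 in T cells of that library, and the part of free RNA in their ratios was not tested.

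Plin2 was not above WT within this gate, and it was called lower in db/db 16w alone. It was at 877 CPM in PVM-gated cells of WT against 773, 394 and 795 CPM, that is 0.881-fold, 0.45-fold (0.407 to 0.496) and 0.907-fold. Its higher level over all Mono/MAC-gated cells was thus not seen in PVM-gated cells of any obese library. Lipa, too, was close to WT in both db/db libraries (222 and 197 CPM against 186 CPM) and higher in HFD (505 CPM). Called higher were 3 of the 10 genes in db/db 8w, of 8 that passed 20 CPM, beside 2.27% of 5601 genes (127). In db/db 16w they were 2, of 8, beside 18.1% of 6033 genes (1092), and in HFD 6, of 9, beside 12.7% of 6059 genes (767).

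The db/db libraries were also set against each other. They differed in age, in Xist and Y-linked RNA and in mitochondrial share, and the parts of these in the ratios cannot be told apart. In LAM-gated cells Cd36 and Plin2 of db/db 16w were close to those of db/db 8w (0.971-fold, 0.955 to 0.987, and 0.983-fold, 0.966 to 1.001). Fabp4 was at 1327 CPM in the older and 3213 CPM in the younger db/db mice (0.413-fold, 0.406 to 0.42), whereas Fabp5 was at 2405 and 1609 CPM (1.49-fold, 1.47 to 1.52). The 2 binding proteins thus differed in opposite directions between these libraries in LAM-gated cells. In stromal-gated cells both were higher in db/db 16w, Fabp4 4.56-fold (4.50 to 4.62) and Fabp5 3.41-fold (3.13 to 3.70).

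Stromal-gated cells, the fibroblast-like cells among which adipocyte precursors lie, had Cd36, Fabp4 and Fabp5 at least 2-fold above WT in all 3 obese libraries, as in the Mono/MAC gate, and Plin2 as well. Fabp4, a gene switched on as precursors become adipocytes, was at 210.0 CPM in WT against 2023, 9229 and 4200.4 CPM in the obese libraries. Its ratios to the WT level were 9.63-fold (9.40 to 9.87), 43.9-fold (42.8 to 45.1) and 20-fold (19.5 to 20.5). Cd36 was at 74.8, 207, 424 and 635 CPM in that order, or 2.76-fold, 5.67-fold and 8.49-fold the WT level. Fabp5 was at 8.46 CPM in WT against 63.5, 216 and 131 CPM in the obese libraries. In db/db 8w and HFD its UMIs per cell lay within the intervals of T cells, as given below.

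Plin2 in stromal-gated cells was at 86.7, 220.2, 437 and 369 CPM, or 2.54-fold, 5.04-fold and 4.25-fold the WT level. Lpl was high in every library, at 1386 CPM in WT against 2036, 3223 and 3314 CPM in the obese libraries. Lipa was at 55.7, 86.9, 111 and 125 CPM, and only in HFD did it reach 2-fold (2.25-fold, 2.08 to 2.43). There its 0.680 UMIs per cell were no more than the mean of 0.882 in T cells. Of the 15 Lipa UMIs of those 17 T cells, 1 cell held 10. Acsl1 was at 6.73, 10.2, 23.2 and 17.7 CPM and Dgat1 at 11.3, 10.3, 15.9 and 11.8 CPM. Pnpla2, at 31.3, 22.1, 47.4 and 32.9 CPM, showed no common direction.

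Mgll was the exception of the stromal gate. Its level was 116 CPM in WT against 70.4, 17.2 and 65.7 CPM in the obese libraries, so that every obese library lay below WT. The ratios were 0.609-fold (0.576 to 0.643), 0.148-fold (0.115 to 0.188) and 0.568-fold (0.517 to 0.623). On the reference, Mgll overlaps the antisense gene Gm26588, which the tables count as well. The kit reads strand, but the counting options were not given in the sources used here.

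In db/db 8w 4 of the 10 genes were called higher in the stromal gate, of 8 that passed 20 CPM, beside 3.63% of 6275 genes (228). In db/db 16w 6 were called higher, of 9 that passed, beside 12.8% of 6564 genes (838), and in HFD 6, of 8, beside 9.03% of 6581 genes (594). Cd36, Fabp4, Fabp5 and Plin2 were called in all 3. The calls of Cd36 and Lipa in HFD were lost once the mean UMIs of T cells were subtracted, at log2 ratios of 0.88 and -5.58. That mean came from 17 T cells. The highest of them held 25 of the 48 Cd36 UMIs, and the highest for Lipa 10 of 15. Mgll in db/db 16w was the 1 gene called lower, while 2.79%, 14.9% and 7.86% of all genes tested were (175, 980 and 517 genes).

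The stromal gate also differed in its makeup. Progenitor-gated cells, with the genes Pi16, Dpp4, Cd55 and Anxa3, were 3217 in WT against 1829, 26 and 175. Committed-gated cells, with Col15a1, Col4a1, Cxcl14 and Col4a2, were 859, 3162, 972 and 1257. Committed-gated cells were 20.7% of the WT stromal gate and 59.9%, 94.3% and 87.5% of the others, and values for the 26 progenitor-gated cells of db/db 16w are not given.

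Within 1 library the committed-gated cells held more Lpl, Fabp4, Cd36 and Plin2 and less Mgll. In WT Lpl was at 3228 CPM in committed-gated and 871 CPM in progenitor-gated cells (3.71-fold), Fabp4 at 882 and 22.9 CPM (38.5-fold) and Cd36 at 306 and 10.2 CPM (29.9-fold). Plin2 was at 169 and 63.9 CPM (2.64-fold). Mgll went the other way, at 20.9 and 143 CPM in WT, 26.8 and 155 CPM in db/db 8w, and 50.7 and 197 CPM in HFD. Called higher in committed-gated cells were 4 of the 10 genes in WT, of 7 that passed, beside 3.79% of 6144 genes (233). In db/db 8w they were 5, of 8, beside 4.8% of 6334 genes (304), and in HFD 3, of 8, beside 8.15% of 6724 genes (548). Mgll alone was called lower in each, beside 5.73%, 6.36% and 8.91% of genes (352, 403 and 599).

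**Figure D3:**
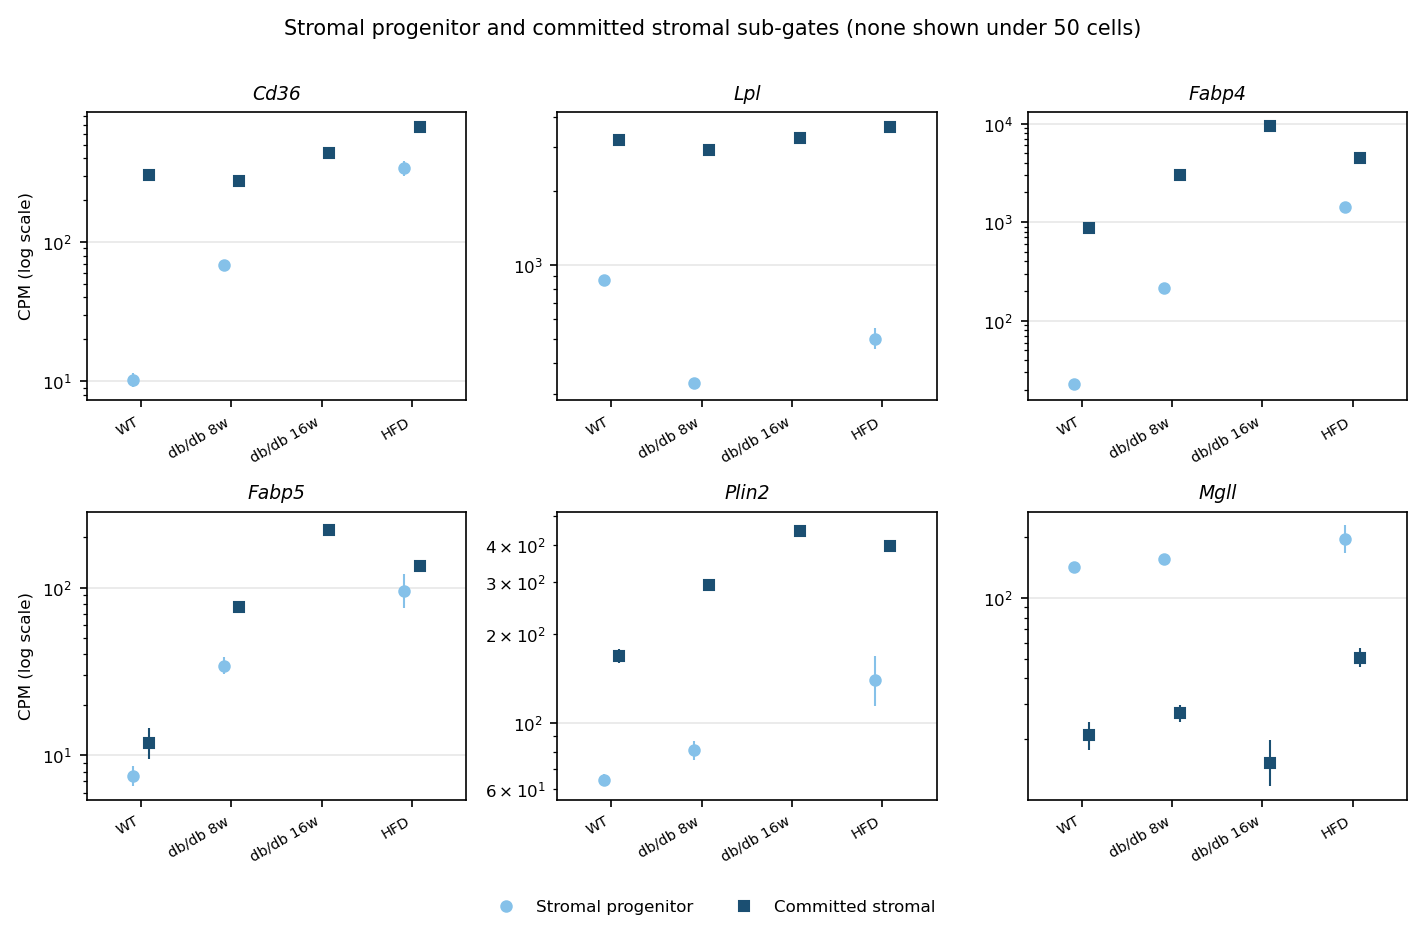
Levels of 6 of the genes in CPM on a log axis in progenitor-gated (circles) and committed-gated stromal cells (squares) of each library, with exact 95% Poisson intervals. The progenitor gate of db/db 16w, with 26 cells, is left out. Lpl lay between 2939 and 3635 CPM in committed-gated cells of all 4 libraries, and Mgll was higher in progenitor-gated cells wherever both are shown.

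Among committed-gated cells alone, a comparison chosen after the data were seen, Lpl was at 3228 CPM in WT against 2939, 3287 and 3635 CPM, all within 1.13-fold of WT. Fabp4 was at 882, 2984, 9469.9 and 4521 CPM, still 3.38-fold, 10.7-fold and 5.13-fold its WT level, and Fabp5 was at 11.8, 76.9, 222 and 135 CPM. These 2 were called higher in all 3 obese libraries, as in the PVM gate. In HFD Fabp5 had 940 UMIs in 1257 committed-gated cells, a mean within the interval of 0.203 to 0.927 UMIs per T cell. The part of free RNA in that call was not tested. Cd36 was at 306, 275, 435 and 669 CPM and was called in HFD alone (2.19-fold, 2.08 to 2.30). The HFD cells held 3.72 Cd36 UMIs each, within the interval of 2.08 to 3.74 UMIs per T cell of that library, and those of WT 2.68. Mgll was at 20.9, 26.8, 15.3 and 50.7 CPM, so its lower level in the whole stromal gate was not seen here in db/db 8w or HFD. In HFD it had 354 UMIs in 1257 cells, a mean within the interval of 0.0641 to 0.602 per T cell, so the HFD value may hold free RNA. Called higher were 2 of the 10 genes in db/db 8w, of 8 that passed, beside 3.49% of 6054 genes (211). In db/db 16w they were 4, of 9, beside 15.1% of 6302 genes (954), and in HFD 5, of 8, beside 9.87% of 6362 genes (628).

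Lpl in progenitor-gated cells was lower in both obese libraries with enough cells. Its level of 871 CPM in WT (860 to 882) compared with 330.4 CPM (319 to 343) in the younger db/db mice and 502 CPM (454 to 554) on the high-fat diet. Mgll was at 143, 155 and 197 CPM in the same cells, and Fabp4 at 22.9, 213 and 1430.1 CPM. The HFD values of Fabp4 and Lpl were near those of T cells of the same library, at 6.46 and 2.27 UMIs per cell against 5.24 (4.20 to 6.44) and 2.0 (1.39 to 2.79). They are not read as expression, since the part of free RNA in them was not tested.

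**Figure D4:**
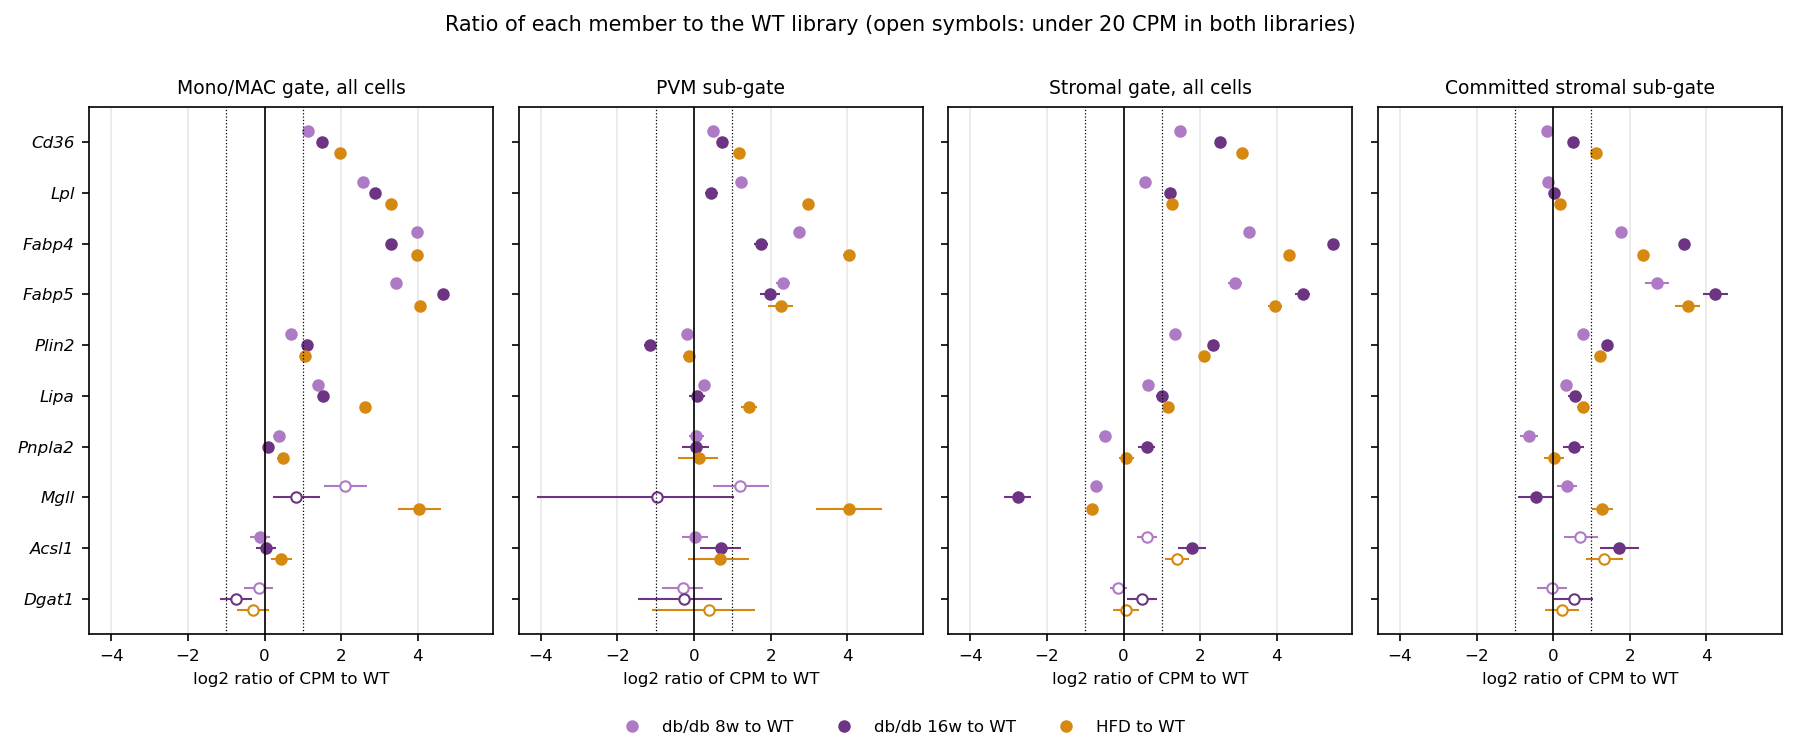
Log2 ratio of each gene to WT in all Mono/MAC-gated cells, PVM-gated cells, all stromal-gated cells and committed-gated stromal cells of the 3 obese libraries, with exact 95% intervals. Dotted lines mark 2-fold, and open symbols are under 20 CPM in both libraries. Fabp4 and Fabp5 lay beyond 2-fold in all 4 panels, whereas Plin2 lay below 0 in the PVM panel and Lpl near 0 in the committed panel.

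Within a library the lineages kept a recurrent order for some genes. Fabp5 in Mono/MAC-gated cells was 10.2-fold its level in stromal-gated cells in WT, and 14.6-fold, 10.1-fold and 11.0-fold in the obese libraries, so its level differed from WT by similar factors in both gates. Cd36 was 10.6-fold higher in Mono/MAC-gated than in stromal-gated cells of WT, against 8.47-fold, 5.32-fold and 4.87-fold, and Plin2 10.2-fold against 6.43-fold, 4.36-fold and 4.94-fold. Lpl took the other course: it stood at 0.274-fold the stromal level in Mono/MAC-gated cells of WT (0.264 to 0.284) and at 1.11-fold, 0.874-fold and 1.13-fold in the obese libraries. Fabp4 was nearest the stromal level in db/db 8w (0.963-fold) and farthest from it in db/db 16w (0.133-fold).

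The promoters of the members were looked up in RefSeq on GRCm38.p6, as the 250 bases before the start of transcription, and 6 of the 10 genes were matched (Cd36, Plin2, Lipa, Pnpla2, Mgll and Acsl1). Lpl, Fabp4, Fabp5 and Dgat1 were not. The hexamer AGGTCA, which nuclear receptors such as PPARγ bind, was searched on both strands because Pparg was higher in stromal-gated cells. It was found in the windows of Cd36 and Plin2, among 8 windows of the 6 genes, and in 14.0% of all 32851 promoters (4607). The same hexamer repeated after 1 base, the DR1 element, was in none of the 6 genes and in 0.0335% of all promoters. The windows of these 2 genes, with the hexamer in capitals as it reads on the gene's strand (TGACCT is its reverse complement), lie at chr5:17835897-17836146 for Cd36 and chr4:86670060-86670309 for Plin2, both on the minus strand. The hexamer began 228 bases before the start in Cd36 and 218 bases before it in Plin2.
Cd36: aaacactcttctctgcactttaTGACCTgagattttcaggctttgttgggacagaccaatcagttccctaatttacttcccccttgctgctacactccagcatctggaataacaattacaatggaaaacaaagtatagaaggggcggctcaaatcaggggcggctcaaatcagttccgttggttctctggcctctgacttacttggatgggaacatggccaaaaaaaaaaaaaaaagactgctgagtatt
Plin2: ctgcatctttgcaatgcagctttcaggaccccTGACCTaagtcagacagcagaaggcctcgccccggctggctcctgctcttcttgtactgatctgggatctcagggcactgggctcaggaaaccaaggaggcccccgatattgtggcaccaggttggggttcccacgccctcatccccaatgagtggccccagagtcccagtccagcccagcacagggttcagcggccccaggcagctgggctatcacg
The Cd36 window lies inside the gene as GENCODE M21 draws it (17781690 to 17888801), and the first bases after its start were not found in a GENCODE transcript of Cd36. The E-box CACGTG, bound by factors of lysosomal genes such as TFEB, was in 6.02% of all promoters and in 1 of the 6 genes, Mgll, 44 bases before a start. Such matches are letters in a window and not evidence of binding.

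Endothelial-gated cells could be set against WT only as values, since the WT gate held 19 cells. Cd36 was at 5869 CPM in WT (5060.3 to 6771) against 5780.2, 5708 and 5589 CPM in the obese libraries, and did not differ between HFD and db/db 16w beyond counting error (0.979-fold, 0.956 to 1.003). Fabp4, a marker of capillary endothelium as well as of fat cells, was at 20262, 30923, 72616 and 37629 CPM, or 34.2, 74.6, 95.6 and 184 UMIs per cell. Lpl was at 4714 CPM in WT (3992 to 5529) against 2397, 1554 and 1078 CPM in the obese libraries. In CPM, Fabp4 was thus highest in db/db 16w and Lpl lowest in HFD. In UMIs per cell, Fabp4 was highest in HFD and Lpl lowest in db/db 16w, at 2.05 against 5.28 in HFD. Against stromal-gated cells of the same library, Cd36 was 28.0-fold, 13.5-fold and 8.80-fold higher in endothelial-gated cells of the obese libraries, while Lpl was at 1.18-fold, 0.482-fold and 0.325-fold the stromal level.

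Mgll was abundant in endothelial-gated cells, at 1280.0, 1871, 1439 and 1567 CPM, which was 26.6-fold, 83.8-fold and 23.8-fold the stromal level in the obese libraries, and Plin2 stayed between 384 and 468 CPM. Fabp5 was at 312, 482, 703 and 1537 CPM and Pnpla2 at 375, 196, 615 and 165 CPM. Between HFD and db/db 16w 3 of the 10 genes were called higher in HFD, of 9 that passed 20 CPM: Fabp5 (2.19-fold, 2.05 to 2.33), Lipa (2.62-fold, 2.11 to 3.29) and Acsl1 (2.60-fold, 1.90 to 3.63). This stood beside 20.8% of 6506 genes (1351). Pnpla2 was called lower (0.268-fold, 0.243 to 0.296), beside 7.22% of all genes (470). The mean of Lipa in HFD was no more than that of T cells, as described below. The median endothelial-gated cell of db/db 16w held 1056 UMIs and that of HFD 4368.

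RNA that is free in the cell suspension enters every droplet, and T cells, which have little use for most of these genes, served as a measure of it. The T gate held 29 WT cells and 108, 42 and 17 cells of the obese libraries. Fabp4 was at 0.0345, 0.639, 0.571 and 5.24 UMIs per T cell, against 0.899, 13.8, 9.74 and 14.8 UMIs per Mono/MAC-gated cell. Cd36 was at 0.103, 0.361, 0.143 and 2.82 UMIs per T cell, against 5.73, 12.4, 17.8 and 23.2, and Lpl at 0.0345, 0.38, 0.0714 and 2.0, against 2.74, 16.0, 22.3 and 28.1. The HFD library thus had the most of these transcripts in its T cells.

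In stromal-gated cells of HFD some values were near this background. Cd36 was at 3.45 UMIs per stromal-gated cell and 2.82 (2.08 to 3.74) per T cell, and Lipa at 0.680 and 0.882 (0.494 to 1.46). These T cell means lean on single cells. The highest of the 17 T cells held 10 of the 15 Lipa UMIs, and the highest for Cd36 held 25 of 48. A Lipa UMI was seen in 44.2% of stromal-gated and 29.4% of T-gated cells, and after thinning to 1000 UMIs in 11.2% and 17.6%. With each cell thinned to 1000 UMIs, 41.6% of stromal-gated and 47.1% (23.0 to 72.2) of T-gated HFD cells held a Cd36 UMI. Before thinning these shares were 82.4% and 70.6%. The thinned share in stromal-gated cells is thus not evidence of expression in so many cells, and the part of free RNA was not tested. The same shares were 80.5% in Mono/MAC-gated and 98.4% in endothelial-gated cells of HFD. In WT they were 5.09% of stromal-gated and 3.45% of T-gated cells, with median depths of 7203 and 5162 UMIs and shares of 13.7% and 10.3% before thinning. Thinning left out the cells under 1000 UMIs, at most 44 of the WT gates shown and none of the HFD gates. Once the mean of T cells was subtracted, Cd36 in stromal-gated HFD cells was 0.88 above WT on the log2 scale in place of 3.09, and Lipa was below WT.

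Over all stromal-gated HFD cells Fabp4 and Lpl stood far above the background, at 22.8 and 18.0 UMIs per cell against 5.24 and 2.0. Fabp5 did not, at 0.709 against 0.471 (0.203 to 0.927). In db/db 8w Fabp5 was at 0.319 per stromal-gated and 0.241 (0.157 to 0.353) per T cell. The values were 0.831 and 0.0714 (0.0147 to 0.209) in db/db 16w, and 0.0706 and 0.345 (0.165 to 0.634) in WT. The part of free RNA in its stromal ratios was not tested. In endothelial-gated HFD cells Lipa was at 0.793 UMIs per cell, again no more than in T cells, whereas Fabp4 was at 184. In T-gated HFD cells 94.1% held a Fabp4 UMI after thinning, so the shares of 76.2% of Mono/MAC-gated and 84.6% of stromal-gated HFD cells are not evidence of expression in so many cells. Dgat1 was highest in T cells in WT and db/db 8w, at 182 CPM (124 to 258) and 74.4 CPM (49.5 to 108), against 10.3 to 11.6 CPM in their Mono/MAC and stromal gates. T cells are therefore no background for Dgat1. For Fabp5, too, the T cell mean of WT was above that of stromal-gated cells, with 8 of its 10 UMIs in 1 T cell. Whether T cells can serve as a background for Fabp5 was not tested.

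**Figure D5:**
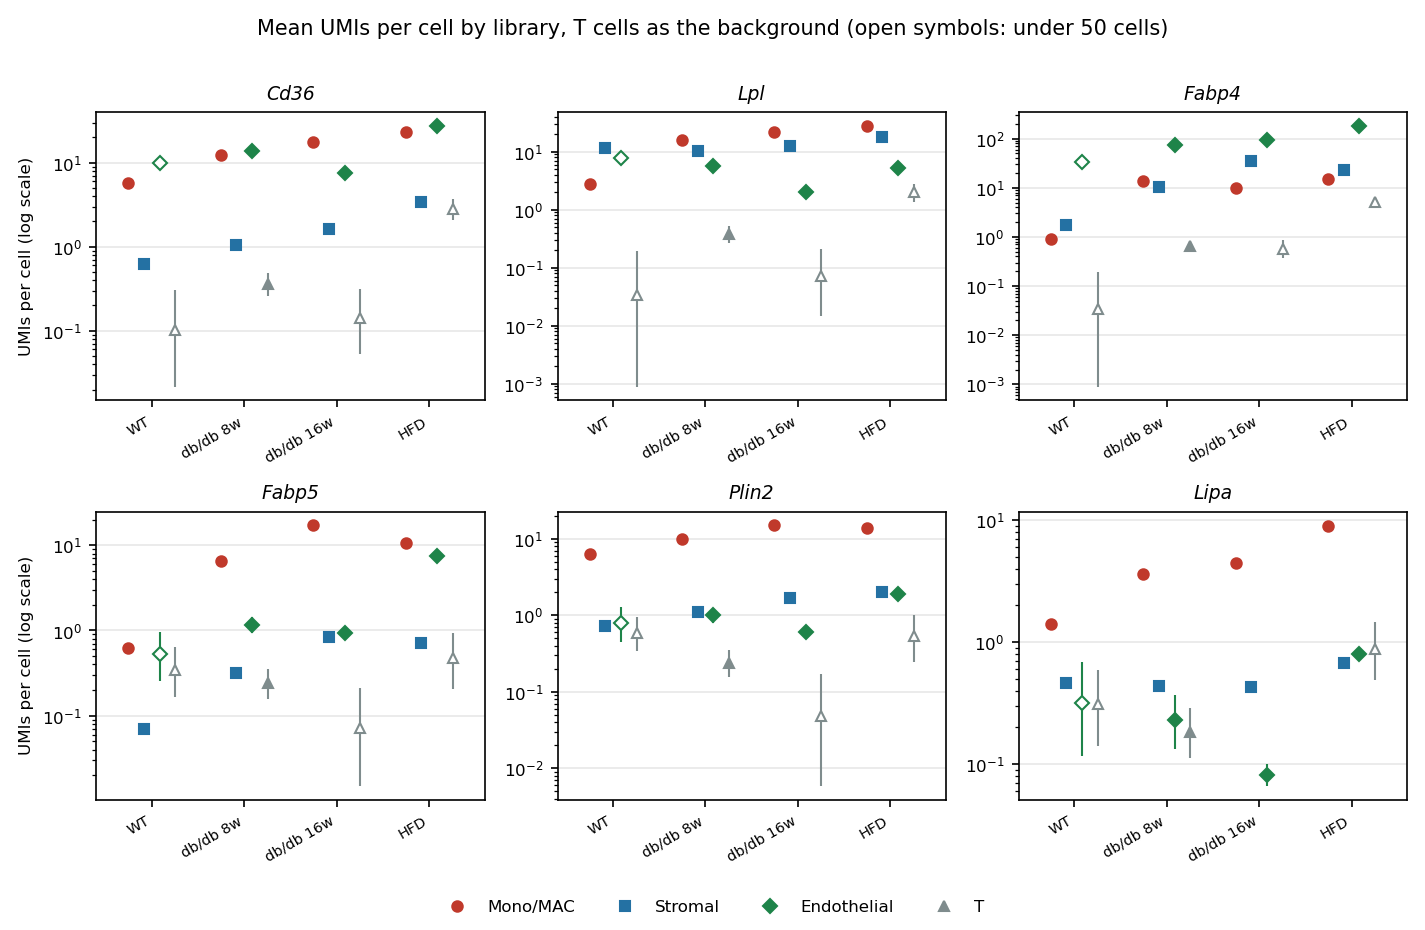
Mean UMIs per cell on a log axis for 6 of the genes in Mono/MAC-gated (circles), stromal-gated (squares), endothelial-gated (diamonds) and T-gated cells (triangles) of each library, with exact 95% Poisson intervals. Open symbols are gates under 50 cells, and Lipa in T cells of db/db 16w is not drawn because its count was 0. T cells of HFD held more Cd36, Lpl and Fabp4 than those of the other libraries, and the Lipa level of stromal-gated HFD cells lay within the interval of T cells.

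Adipocyte RNA was higher in HFD as well. A list of 10 adipocyte genes summed to 45.0 CPM over all WT cells against 49.7, 82.4 and 301 CPM. All 10 were seen in each library. Ucp1, which defines brown adipocytes, was at 0.333, 1.95, 1.13 and 58.5 CPM. In HFD the sum was 119 CPM in Mono/MAC-gated, 176 CPM in stromal-gated and 674 CPM in endothelial-gated cells, and in db/db 16w it was 311 CPM in stromal-gated cells. The part of adipocyte RNA in the levels of the 10 genes was not tested. The 6 endothelial markers were at most at 9.56 CPM in Mono/MAC-gated cells of the db/db libraries, below the HFD value given above.

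The genes were also counted together in single cells thinned to 1000 UMIs. In the Mono/MAC gate 1.04% of WT cells (0.522 to 1.86) held at least 5 of the 10 genes, against 17.9%, 31.5% and 48.2% (45.6 to 50.8) in the obese libraries. LAM-gated cells with at least 5 of them were 45.1%, 39.9% and 57.2% in the obese libraries, and PVM-gated cells 3.09%, 1.82% and 18.6%. In the endothelial gate the share was 46.2%, 56.8% and 59.4% there. T cells reached it in 0 of 107 thinned cells of db/db 8w (interval up to 3.39%) and in 5.88% of the 17 cells of HFD (0.149 to 28.7).

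A list of 50 other genes of lipid uptake, storage, lipolysis, cholesterol handling and fatty acid oxidation was read by the same rule. In Mono/MAC-gated cells 6 of the 28 that passed 20 CPM were higher in db/db 8w, 5 of 25 in db/db 16w and 14 of 30 in HFD, and 1, 4 and 2 were lower. That is 21.4%, 20% and 46.7% higher, beside 5.42%, 22.4% and 13.9% of all genes tested, and 3.57%, 16% and 6.67% lower, beside 5.4%, 25.8% and 11%. Neither share of the list was above that of all genes in db/db 16w. The median log2 ratio of those that passed was 0.43, 0.29 and 0.75, beside 0.05, -0.09 and 0.19 over all genes. Genes higher in all 3 libraries were Lrp1, a receptor of lipoprotein remnants (82.4, 243, 401 and 439 CPM), Hilpda, an inhibitor of the triglyceride lipase encoded by Pnpla2 (102, 597, 239 and 250.1 CPM), and Nceh1, a cholesteryl ester hydrolase (69.0, 199, 148 and 277 CPM). Lpin1, a phosphatidate phosphatase of triglyceride synthesis, was lower in all 3 (81.7, 36.5, 10.3 and 40.8 CPM), in HFD close to the limit at 0.4996-fold (0.442 to 0.565).

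In stromal-gated cells 3 of the 24 genes of this list that passed were higher in db/db 8w, 3 of 21 in db/db 16w and 7 of 28 in HFD, and 0, 0 and 1 were lower. The shares higher were 12.5%, 14.3% and 25%, beside 3.63%, 12.8% and 9.03% of all genes tested, so that in db/db 16w the list was near the general share. Their median log2 ratio was -0.08, 0.09 and 0.64, beside 0.03, 0.01 and 0.08 over all genes. Higher in all 3 were G0s2, which also inhibits the enzyme encoded by Pnpla2 (21.2, 82.1, 124 and 205 CPM), and Pparg, the nuclear receptor that drives adipocyte genes (6.90, 20.5, 32.8 and 42.5 CPM). In the sub-gates Lrp1 was higher in all 3 among PVM-gated cells (69.6, 152, 345 and 238 CPM), and G0s2 among committed-gated cells (58.6, 119, 127 and 227 CPM). Gpihbp1, the capillary anchor of lipoprotein lipase, was at 20.2 CPM in Mono/MAC-gated HFD cells and 0.131 CPM in those of WT.

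Likeness to other genes was read over 12 profiles of a gate in a library, the 4 Mono/MAC, 4 stromal, 3 endothelial and 1 T profiles with at least 50 cells, among 9521 genes. Pearson's r of log2(CPM + 1) is a description, since the profiles share libraries and gates. Cd36 was most like Pdgfb (0.96), Csf2rb (0.96) and Cd93 (0.95), Fabp4 most like Aqp1 (0.95), Myo10 (0.94) and Trp53inp2 (0.94), and Mgll most like Plxna2, Ankrd40 and Kitl (all 0.97). Lipa was most like Atp6v1c1 (0.97), a subunit of the pump that acidifies lysosomes, Cd300c2 (0.97) and Rtf2 (0.96), and Plin2 most like Blvra (0.96), Snx3 (0.95) and Vps26a (0.94).

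Fabp5 was most like Myl6 (0.96), Bcar3 (0.93) and Cox6a1 (0.93), and Lpl most like Ipo5 (0.95), Rhoc (0.95) and Gps1 (0.94). Pnpla2 was most like Gpr146 (0.96), Fam219a (0.94) and Nol4l (0.94), Acsl1 most like Dnttip2 (0.89), Ggta1 (0.89) and Piezo1 (0.86), and Dgat1 most like Zbtb25 (0.97), Ccl1 (0.94) and Sidt1 (0.93). None of these was another of the 10 genes. Among the 10, the highest r were those of Plin2 with Lipa (0.88), Cd36 with Pnpla2 (0.88) and Cd36 with Fabp5 (0.88).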

How the data were processed

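Single-cell libraries of the BAT SVF (10x Genomics 3′) were processed by the authors with Cell Ranger on the mouse mm10 genome (version 7.1.0 by the submitters' processing notes, 6.0.0 by the file headers). The tables deposited by the authors hold UMI counts, whole numbers for each gene in each barcode, to which no quality limit had been applied. Gene positions came from GENCODE M21 (GRCm38), where 32235 of 32285 gene IDs were found. The 10 genes, the marker, pathway (50 genes) and adipocyte (10 genes) lists and the comparisons were chosen with earlier results of these data known.

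By the limits of the study's methods, a barcode was kept if its genes numbered between 250 and 6000, its UMIs between 500 and 30000, and its mitochondrial share was below 15%. Lineages were gated on raw marker UMIs for 9 lineages. No doublet caller was run: cells with under 80% of their marker UMIs from 1 lineage were left out, with 11.3% to 29.5% of cells per library in no gate, and an alternative required 100%. UMIs were summed per gate and library and divided by all UMIs of the gate (CPM). Each group was 1 library, so no test was run. Sums were given exact Poisson intervals, shares exact Clopper-Pearson intervals and ratios exact conditional binomial intervals, all at 95% and for counting error only. A count of 0 was taken as 3 counts in a ratio, and gates under 50 cells gave no ratio. Cells were thinned to 1000 UMIs where shares of cells were compared. All 10 genes were named. Pathway genes were named where they were called in the same direction in all 3 obese libraries, and the 3 genes most like each member by r. Gpihbp1 was named after its values were seen. Scripts were tested on simulated data. Python 3.11.15, numpy 2.4.6, scipy 1.17.1, pandas 2.3.3, matplotlib 3.10.9 and, for TMM scaling, edgeR 4.0.16 in R 4.3.3 were used.

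Alternatives were other quality limits, gates, scalings, filters and folds, thinning, and subtraction of the mean UMIs of T cells.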

Additional observations from a re-analysis of the deposited data

Results flagged for a closer look

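Mgll differed from WT in opposite directions in the Mono/MAC and stromal gates, in every obese library. On the log2 scale, Mono/MAC-gated cells of the obese libraries (db/db 8w, then db/db 16w, then HFD) lay at 2.09, 0.82 and 4.02 relative to WT, and stromal-gated cells at -0.72, -2.75 and -0.82. The difference between the gates was not tested, since each group is 1 library. In the Mono/MAC gate its level was under 20 CPM in WT, db/db 8w and db/db 16w, and with a gate purity of 100% the db/db 16w ratio was -1.11. In stromal-gated cells the share of progenitor-gated cells, which held 95.7% of the Mgll UMIs of the WT gate, differed between the libraries as well.

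Barcodes removed by the mitochondrial limit alone entered no comparison and held the 10 genes too. Those of WT summed to 3201 CPM (3143 to 3261). Those of db/db 8w and HFD summed to 5920.2 and 21109 CPM, and the 55 barcodes of db/db 16w to 40006 CPM. All 3 obese libraries lay above WT. Among the cells kept the sums were 2088, 6569, 16560 and 20601 CPM. Fabp4 alone made up 207, 2087, 8082 and 11826 CPM of these. It was highest in endothelial-gated cells, of which WT had 19 and the obese libraries 74, 1156 and 926. The part of endothelial content in these sums, and in those of the removed barcodes, was not tested.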

How the results depend on the processing

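No paired analysis was possible because each group has 1 library. Of 288 alternative counts of the 10 genes called, 265 stayed within 1.5 times the reported count, and of 1226 alternative ratios 745 lay inside the counting interval of the reported value, 474 outside it and 7 reversed. The cause was not tested in any of these. Subtraction of T cells at 50% purity and the PVM-gated and committed-gated comparisons were chosen after seeing the data.

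In Mono/MAC-gated cells, 3 genes in place of 5 were called higher in db/db 8w with cells thinned to 1000 UMIs. This stood beside 6.16% of all genes. PVM-gated cells alone gave 3 as well, beside 2.27% of all genes. In db/db 16w PVM-gated cells gave 2 higher in place of 6, beside 18.1% of all genes. They gave 1 lower in place of 0, beside 12.8% of all genes lower. The log2 ratio of Plin2 reversed to -1.15 in PVM-gated cells of db/db 16w and to -0.14 in those of HFD. In stromal-gated cells, committed-gated cells alone gave 2 higher in place of 4 in db/db 8w, beside 3.49% of all genes, with Cd36 at -0.15. They gave 0 lower in place of 1 in db/db 16w, beside 11% of all genes. A 1.5-fold limit gave 1 gene lower in db/db 8w, beside 8.13% of all genes. In HFD 1 gene was lower in place of 0 with T cells subtracted, TMM scaling or a 1.5-fold limit, and 2 with T cells of 50% purity subtracted. Lipa then reversed to -5.58 and -6.01, values that rest on the count taken for 0. In endothelial-gated cells, 2 genes in place of 1 were lower in HFD with no mitochondrial limit, a mean over cells, thinning, centring, TMM, a 1.5-fold limit or T cells of 50% purity subtracted, and 3 with T cells subtracted. Lipa there reversed to -6.54 with T cells subtracted and to -1.51 with those of 50% purity. Between LAM-gated and PVM-gated cells, 1 gene was lower in db/db 16w with thinning or a 1.5-fold limit, and 8 in place of 4 were higher in HFD with either subtraction. With T cells subtracted, the share of all genes called higher rose in that HFD comparison too, as given above. Other counts of the HFD stromal, endothelial and LAM to PVM alternatives are given without the share of all genes. Alone they do not show whether these genes stood out from all genes.

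A mitochondrial limit of 5% left under 50 cells in the HFD comparisons and was not run there, nor was a purity of 100% for LAM-gated against PVM-gated HFD cells. The T cells of HFD number 17, and the highest of them held 25 of the 48 Cd36 UMIs and, for Lipa, 10 of 15. This limits what the subtraction can show. With 1 library per group, no difference between libraries can be told apart from differences between mice, sorts or runs.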
